A study of Mus musculus with 39 samples.

Results

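Of 39 RNA sequencing libraries from adult male C57BL/6 mice, 20 came from quadriceps muscle and 19 from tissue labelled epididymal white adipose tissue (eWAT), and 13 of the 19 eWAT libraries carried abundant RNA of the epididymis, the sperm duct that lies against this fat pad. These 13 epididymis-rich libraries are described here, with 7 from fasted and 6 from fed mice. They were selected on a single readout, a level above 1000 CPM (counts scaled to a common library total) of Gpx5, a secreted peroxidase of the epididymis. The selecting values ran from 1687 to 29108 CPM, the highest eWAT value left out was 16.6 CPM, and quadriceps reached 0.322 CPM. Gpx5 and the other epididymal markers therefore describe the libraries and are not results.

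All mice ate chow until week 6, then either a high-fat diet (HFD, 45% of energy from fat) or a control diet (CD, 10%) for 1 week, then chow again up to week 10, and the HFD thereafter, which fed and fasted mice of both early diets share; age at collection was 22 weeks. Fasted mice had no food for the last 16 h. The fasted libraries comprised 4 with early HFD (HFD fasted 1, 2, 3 and 5) and 3 with early CD (CD fasted 4, 5 and 6), and the fed libraries 2 with early HFD (HFD fed 1 and 4) and 4 with early CD (CD fed 1, 2, 3 and 4). Numbers within a group only name libraries. Whether every library has its own animal behind it is not in the labels, and the p-values cover the spread between these libraries. The comparison asks what fasting changed in libraries that all held abundant epididymal RNA, with early diet as a covariate. Their share of this RNA was not equal. Summed epididymal markers were lowest in CD fed 1 (21193 CPM) and highest in HFD fasted 2 (75770 CPM), although the medians of the fasted and fed groups were close.

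In fasting, insulin falls and adipocytes release stored triglyceride: lipolysis genes become active, fatty acid synthesis slows, and leptin, the hormone that reports fat stores, declines. Glucocorticoids and the FoxO transcription factors, which insulin holds out of the nucleus, switch on genes of fuel saving such as Pdk4, which keeps pyruvate from being burned. The epididymis is a secretory duct whose epithelium matures sperm and is governed mainly by androgen and by factors from the testis.

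Between 6199586 and 10928485 reads were counted per library, 18.4% to 39.2% of the reads listed. Low alignment quality removed 13.6% to 31.8% of reads in fasted and 18.8% to 32.7% in fed libraries. The defining epididymal markers were present in every library: the median sum over 22 of them was 53000 CPM (23990 to 75770) in fasted and 52550 CPM (21190 to 53900) in fed libraries. Adipocyte markers, which define the labelled tissue, were low: the median of their 20-gene sum was 3782 CPM (2045 to 26900) in fasted and 4040 CPM (3047 to 6700) in fed libraries, against 68040 CPM (3436 to 76120) in the other 6 eWAT libraries. Of the 13 marker lists tested, 0 differed between fasted and fed libraries after adjustment (exact permutation within early diets, two-sided, 525 arrangements, smallest adjusted p = 0.495). A missed threshold does not show that the contents were alike. Gene by gene, 18 of the 20 adipocyte markers had a fasting log2 fold change above 0. Their median was 0.82, against 0.04 over all genes. The smallest unadjusted p, 0.0381, belonged to 7 mesothelium markers, with a median of 199 CPM (125 to 271) in fasted and 251 CPM (224 to 267) in fed libraries.

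Several libraries stood apart. Testis markers summed to 20330 CPM in HFD fasted 1 and 4917 CPM in CD fed 1, while the median was 618 CPM in fasted and 361 CPM in fed libraries. The first principal component, with 61.4% of the variance, set these 2 libraries apart from the rest. CD fasted 4 held the most adipocyte RNA (26900 CPM), and HFD fasted 3 the next most together with the lowest Gpx5. In bulk RNA, fewer cells of a type cannot be told apart from less RNA per cell. Results are also given for 7 libraries with hepatocyte, testis and skeletal muscle sums all at most 1000 CPM: HFD fasted 2 and 5, CD fasted 5 and 6, HFD fed 1, and CD fed 2 and 4. The hepatocyte sum includes Cyp2e1 and Trf, which fat also expresses. It left out CD fasted 4 and HFD fasted 3, whose sums without this pair were 33.6 and 50.0 CPM. Without the pair, HFD fed 1 was at 548, CD fed 2 at 301 and CD fed 4 at 282 CPM. The 4 fasted libraries kept were at 32.8 to 121 CPM. Transcripts of this list thus stayed unequal between feeding states in the 7 libraries, and their adjusted p-values carry this limit.

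**Figure D1:**
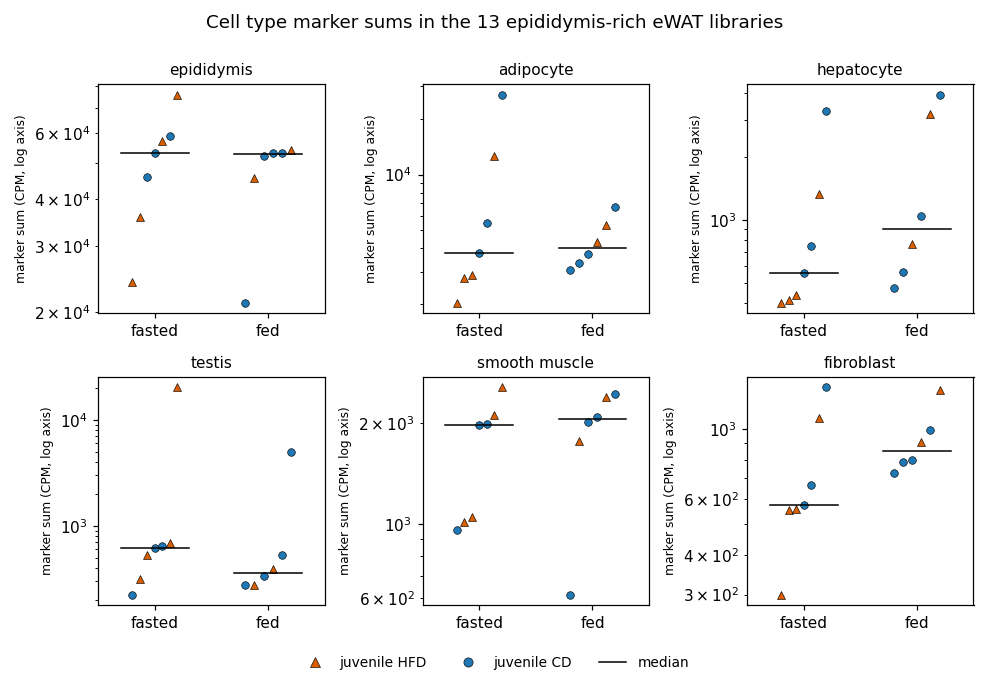
Summed CPM of marker genes (log axis) for 6 cell types in the 7 fasted and 6 fed libraries; each point is a library, triangles mark early HFD, circles early CD, and the line is the median. The epididymal medians are close (53000 CPM fasted, 52550 CPM fed), while single libraries stand out for testis and adipocyte markers.

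Over all genes the fasting difference was small against the spread between libraries. None of 17330 tested genes passed an adjusted p of 0.05 in edgeR (0%), where the lowest adjusted value was 0.0959, and the biological coefficient of variation was 0.721, against 0.202 in quadriceps. Before adjustment, at p under 0.05, 575 genes (3.32%) were higher and 525 (3.03%) lower in fasted libraries. In 29 genes (0.167%) each fasted library lay above each fed one, and in 88 (0.508%) each lay below. With the same design DESeq2 called 212 genes (1.22%), 48 higher and 164 lower, and limma voom with library weights called 145 (0.837%), 22 higher and 123 lower. In the 7 libraries edgeR called 64 of 15993 genes (0.4%), 4 higher and 60 lower. The number of calls thus depended on the tool and on the libraries, and below a gene is said to have passed only with the test named.

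DESeq2 and limma voom in all 13 libraries and edgeR in the 7 libraries shared 3 genes called higher and 16 called lower. The 7 libraries are part of the 13, so these calls are not independent of each other. How many genes would be shared by chance was not determined. The higher ones were Peg3, Fam13a and Acacb. The lower ones included Fasn and Pnpla3 of lipid synthesis and storage, the collagens Col1a1 and Col15a1, the tubulin gene Tuba1a, Greb1, Trabd2b, and the genes Cyp1a2, Cyp2c29, F12, Gpt, Haao, Hnf4a, Slc27a5 and Slc38a3, all known from liver. The sharing genes were named after their values were seen.

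The smallest p among genes higher in fasted libraries was that of Peg3, an imprinted zinc finger gene (ENSMUSG00000002265, GRCm38 7:6703892-6730431). Peg3 had a median of 44.2 CPM (22.6 to 95.2) in fasted and 12.97 CPM (6.02 to 16.9) in fed libraries. The 2 groups did not overlap; CD fasted 4 was highest and CD fed 2 lowest. The log2 fold change was 2.11 ± 0.33 (SE), with adjusted p = 0.0959 in edgeR, so it did not pass in all 13 libraries. It passed in DESeq2 (adjusted p = 1.11e-06), in limma voom (adjusted p = 0.0027) and in the 7 libraries (2.03 ± 0.28; edgeR adjusted p = 0.0167). With the adipocyte sum as a covariate the value was 1.83 (edgeR adjusted p = 0.00472). The neighbouring imprinted gene Zim1, picked out after the values were seen, was near the limit of detection, at 0.55 to 1.65 CPM in fasted and 0 to 0.36 CPM in fed libraries, again without overlap.

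Fam13a, which encodes a GTPase-activating protein and is expressed in adipocytes (ENSMUSG00000037709, 6:58932090-59024549), had a median of 49.9 CPM (15.2 to 241) in fasted and 12.0 CPM (9.03 to 14.8) in fed libraries. Each fasted library lay above each fed one, HFD fasted 1 by the least. Its log2 fold change was 2.51 ± 0.54 (edgeR adjusted p = 0.164) in all 13 and 1.80 ± 0.23 (edgeR adjusted p = 0.00766) in the 7 libraries. An antisense gene, BB365896, overlaps Fam13a, and without a known strand setting the reads of such a pair cannot be separated. Ccz1, part of the complex that activates Rab7 on late endosomes, and Pde7a, a cAMP phosphodiesterase, complete the 5 genes with the smallest p. Both were modestly higher with little spread. The mean of Ccz1 was 40.9 ± 3.27 CPM (SD) over the 7 fasted and 31.3 ± 1.73 CPM over the 6 fed libraries, and Pde7a 25.3 ± 1.81 and 18.3 ± 1.49 CPM. In both genes the groups did not overlap, with log2 fold changes of 0.41 ± 0.09 and 0.46 ± 0.10 that did not pass (edgeR adjusted p = 0.164 and 0.182).

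Among 40 PPAR targets and fatty acid oxidation genes, 6 were higher and 0 lower at an unadjusted p under 0.05, against 3.32% and 3.03% of all genes. Their median log2 fold change was 0.13, against 0.04 over all tested genes. In the 7 libraries it was 0.05, against 0.001 over all genes tested there. Pdk4, the pyruvate dehydrogenase kinase (ENSMUSG00000019577, 6:5483351-5496309), led the list. It had a median of 10.7 CPM (5.07 to 55.7) in fasted and 2.09 CPM (1.19 to 3.54) in fed libraries. The groups did not overlap, and CD fasted 4 and HFD fasted 3, the libraries richest in adipocyte RNA, were highest. Fitted, this was a log2 fold change of 2.97 ± 0.57 (edgeR adjusted p = 0.147), 2.30 with the adipocyte sum as a covariate (edgeR adjusted p = 0.00949), and 2.08 ± 0.43 in the 7 libraries (edgeR adjusted p = 0.0789). Vnn1, a pantetheinase and PPAR-alpha target, was at 1.28 to 15.9 CPM in fasted and 0.16 to 0.78 CPM in fed libraries, also without overlap (log2 3.28 ± 0.68; edgeR adjusted p = 0.16).

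Angptl4, a secreted inhibitor of lipoprotein lipase (ENSMUSG00000002289, 17:33773750-33781830), had a median of 59.1 CPM (33.8 to 350) in fasted and 28.0 CPM (14.1 to 40.1) in fed libraries. HFD fasted 1 lay within the fed range. Its log2 fold change of 2.12 ± 0.56 did not pass (edgeR adjusted p = 0.258), and it was 1.29 ± 0.41 in the 7 libraries (edgeR adjusted p = 0.397). The other 3 members higher at an unadjusted p under 0.05 were Slc25a20, the mitochondrial carnitine carrier (0.45 ± 0.16; edgeR adjusted p = 0.534), Eci2, an enoyl-CoA isomerase (0.51 ± 0.21; edgeR adjusted p = 0.724), and Ucp3, a mitochondrial uncoupling protein (1.57 ± 0.55; edgeR adjusted p = 0.536), named after their values were seen. Of 18 genes of lipolysis and the lipid droplet, 2 were higher and 1 lower at an unadjusted p under 0.05. Over all genes the shares were 3.32% higher and 3.03% lower. The lower one was Pnpla3, which is also in the lipogenesis list. The median log2 fold change of the 18 was 0.62 in all 13 and 0.14 in the 7 libraries. For the 20 adipocyte markers, which share Pnpla2 with this list, the medians were 0.82 and 0.18. The part of fat content in these values was not tested. Pnpla2, the adipose triglyceride lipase, had a median of 320 CPM (169 to 1242) in fasted and 191 CPM (154 to 315) in fed libraries, which overlapped (1.14 ± 0.43; edgeR adjusted p = 0.609). Acsl1, which activates fatty acids, had a log2 fold change of 0.43 ± 0.18 (edgeR adjusted p = 0.724).

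**Figure D2:**
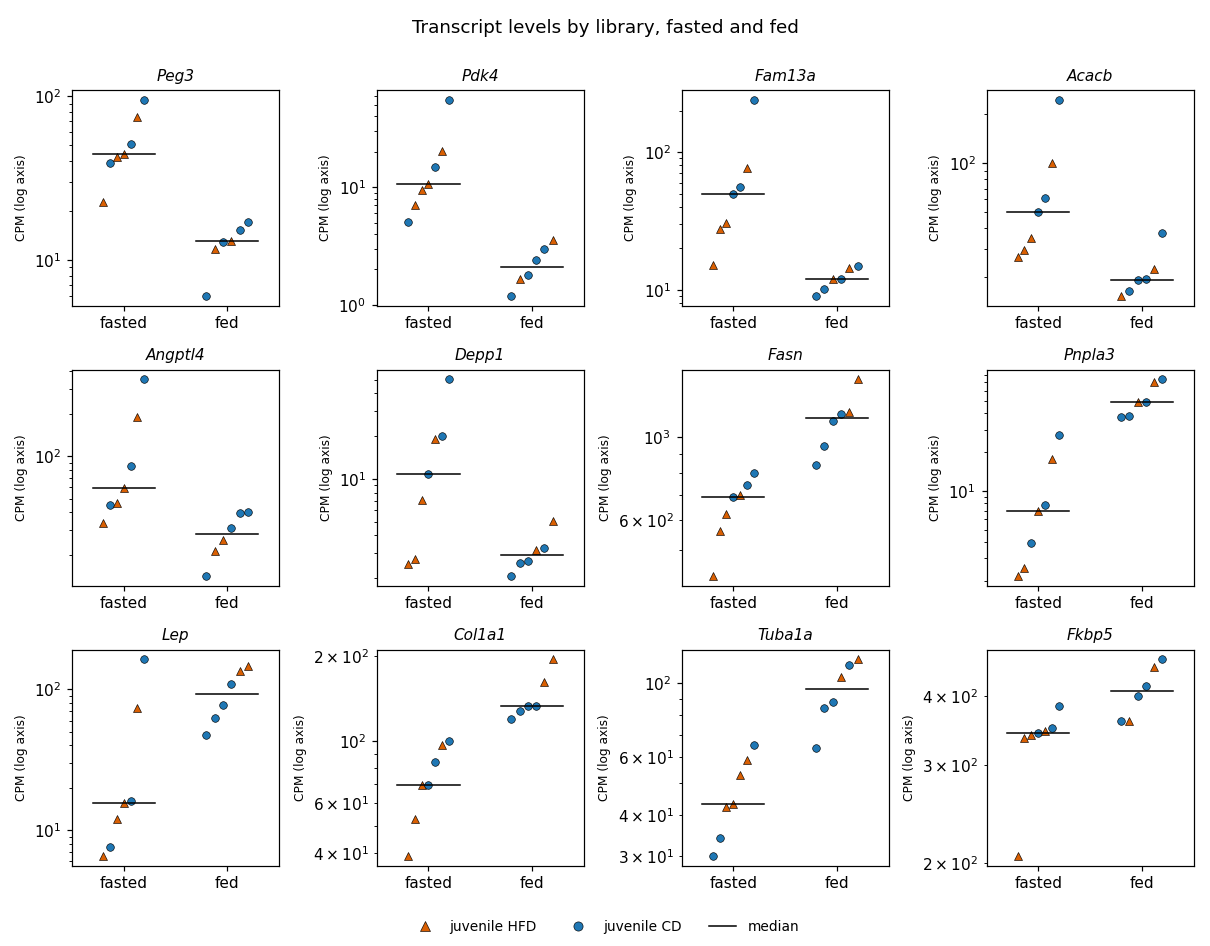
CPM on scaled library sizes (log axis) of 12 transcripts in the 7 fasted and 6 fed libraries; each point is a library, triangles mark early HFD, circles early CD, and the line is the median. Peg3, Pdk4 and Fam13a lie higher and Fasn, Pnpla3 and Col1a1 lower in every fasted library than in any fed one, whereas Lep and Fkbp5 overlap.

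Genes of fat synthesis had mostly lower values in fasted libraries. Of 25 lipogenesis genes, 5 were lower and 2 higher at an unadjusted p under 0.05, against 3.03% lower and 3.32% higher over all genes, with a median log2 fold change of -0.27; 5 of the 25 had values above 0. In the 7 libraries 3 passed as lower and 1 as higher in edgeR, against 0.4% of all genes called. Fasn, fatty acid synthase (ENSMUSG00000025153, 11:120805846-120824547), had a median of 690 CPM (426 to 801) in fasted and 1122 CPM (842 to 1420) in fed libraries. The groups did not overlap, although the highest fasted and lowest fed library were close. Its fitted log2 fold change was -0.76 ± 0.17 (edgeR adjusted p = 0.182) in all 13 and -0.91 ± 0.17 (edgeR adjusted p = 0.0476) in the 7 libraries, and it passed in DESeq2 (adjusted p = 5.64e-04) and limma voom (adjusted p = 0.0287).

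Pnpla3, a lipid droplet protein whose expression follows feeding (ENSMUSG00000041653, 15:84167837-84187236), had a median of 7.03 CPM (2.19 to 27.2) in fasted and 48.7 CPM (37.3 to 73.5) in fed libraries. Each fasted library lay below each fed one, including CD fasted 4 with its far larger adipocyte sum. On the log2 scale the difference was -2.41 ± 0.57 (edgeR adjusted p = 0.195) in all 13, -2.96 ± 0.33 (edgeR adjusted p = 0.0101) in the 7 libraries, and -3.19 (edgeR adjusted p = 2.001e-04) with the adipocyte sum as a covariate. Dgat2, which makes the last bond of triglyceride and was picked out after its values were seen, had a log2 fold change of -1.37 in all 13 libraries and -2.16 in the 7 (edgeR adjusted p = 0.0101). Scd1, the stearoyl-CoA desaturase of fat, had a value of 0.25 ± 0.48 that turned negative in several alternatives (-0.27 in the 7 libraries).

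Acacb, the acetyl-CoA carboxylase whose product restrains fatty acid oxidation (ENSMUSG00000042010, 5:114146535-114250761), went the other way from the synthesis genes. It had a median of 50.3 CPM (26.6 to 246) in fasted and 19.4 CPM (15.4 to 37.5) in fed libraries, with CD fed 1 inside the fasted range. The log2 fold change was 1.90 ± 0.48 (edgeR adjusted p = 0.236), and 1.40 ± 0.18 in the 7 libraries, where it passed (edgeR adjusted p = 0.00677). Of 25 genes of cholesterol synthesis, 8 were lower and 0 higher at an unadjusted p under 0.05, against 3.03% and 3.32% of all genes, with a median of -0.38; 24 of the 25 had values below 0 and 1 above. None passed in edgeR, in the 13 or in the 7 libraries, and DESeq2 and limma voom also called 0. Insig1, which holds back the sterol sensor, had a median of 84.4 CPM (51.3 to 109) in fasted and 131 CPM (92.8 to 148) in fed libraries (-0.60 ± 0.18; edgeR adjusted p = 0.385). Lss (-0.82 ± 0.27) and Sc5d (-0.58 ± 0.19), both enzymes of the later steps, had edgeR adjusted p = 0.491.

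Leptin is made by adipocytes, and its transcript was highest in fasted libraries with the most adipocyte RNA. Lep had a median of 15.6 CPM (6.57 to 164) in fasted and 93.4 CPM (47.5 to 146) in fed libraries. The 5 lowest libraries were all fasted, and the 2 fasted libraries inside or above the fed range were HFD fasted 3 and CD fasted 4, whose adipocyte sums were the highest. The log2 fold change was -1.22 ± 0.77 (edgeR adjusted p = 0.95) in all 13, -2.79 ± 0.32 (edgeR adjusted p = 0.0221) in the 7 libraries, and -2.66 (edgeR adjusted p = 1.836e-04) with the adipocyte sum, which contains Lep, as a covariate. Adiponectin, encoded by Adipoq, had a median of 198 CPM (84.3 to 1163) in fasted and 203 CPM (90.2 to 280) in fed libraries, with no difference past the threshold (0.79 ± 0.58; edgeR adjusted p = 0.993).

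To take the amount of fat out of the value, each adipocyte marker was also set against the mean log2 level of the other 19 in the same library, a measure chosen after the values were seen and given without a test. For 16 of the 20 markers the 2 groups overlapped, for 3 each fasted library lay below each fed one, and for 1 above. On plain levels 0.508% of all genes lay below in this way and 0.167% above. The share of all genes on the relative measure was not determined, so these counts have no background beside them. Lep differed most among those 3: its relative log2 level had a median of -2.12 (-3.15 to -1.23) in fasted and 0.06 (-0.26 to 0.70) in fed libraries. Thrsp, a lipogenic nuclear protein, was at -1.12 (-1.59 to -0.44) in fasted and 0.31 (-0.05 to 1.91) in fed libraries, and Slc7a10, an amino acid transporter of white fat, at -2.85 (-3.31 to -2.72) and -2.31 (-2.67 to -1.97). Pnpla2 stood above, at 2.06 (1.74 to 3.14) in fasted and 1.38 (1.30 to 1.54) in fed libraries. Its highest value was that of HFD fasted 1, the library richest in testis RNA. On this measure HFD fasted 1 was also highest for the markers Lipe (3.46) and Aqp7 (1.64). Set against all 20 markers, Pnpla3 was at -3.83 (-4.06 to -2.72) in fasted and -0.65 (-0.92 to -0.36) in fed libraries, while Acacb was at -0.68 (-0.73 to -0.34) and -1.88 (-2.44 to -1.51). Such ratios show that transcripts changed unequally and not that any of them stayed constant, and Acacb and Pnpla2 are also expressed outside fat.

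**Figure D3:**
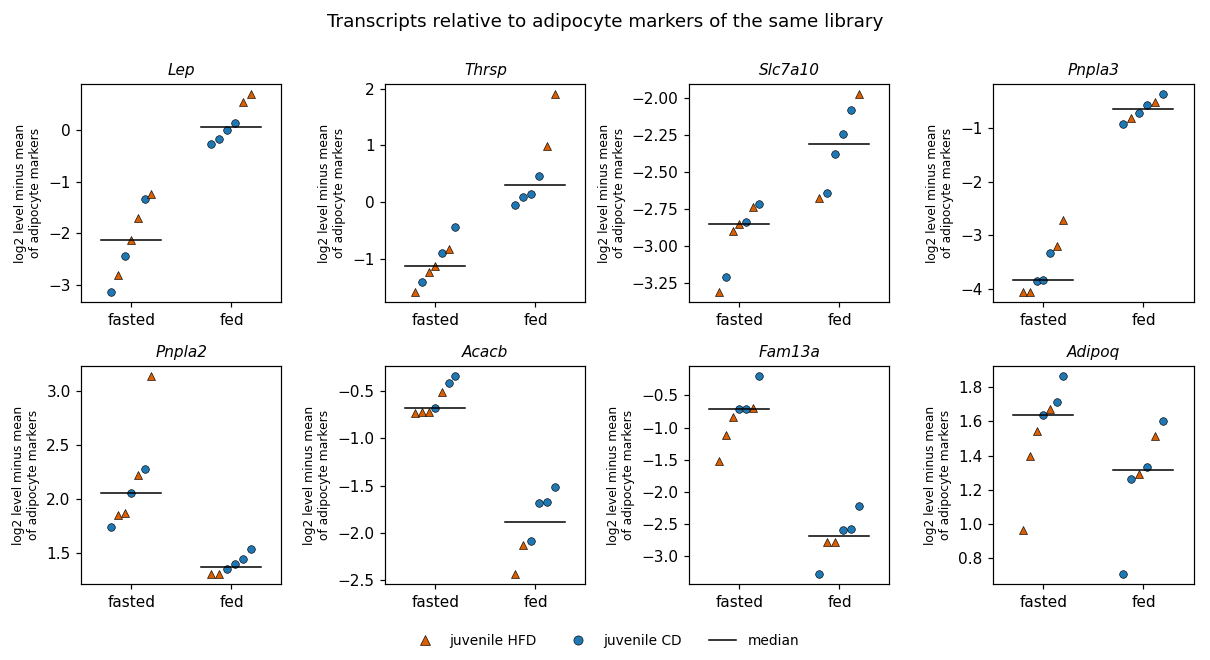
Log2 level of 8 transcripts minus the mean log2 level of adipocyte markers in the same library, for 7 fasted and 6 fed libraries; each point is a library, triangles mark early HFD, circles early CD, and the line is the median. Lep, Thrsp, Slc7a10 and Pnpla3 lie lower and Pnpla2, Acacb and Fam13a higher in every fasted library than in any fed one, and Adipoq overlaps.

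Of 28 glucocorticoid-responsive genes, 4 were higher (Pdk4, Angptl4, Rgs2 and Gadd45b) and 0 lower at an unadjusted p under 0.05, against 3.32% and 3.03% of all genes. Pdk4 and Angptl4 are also in the list of PPAR targets and fatty acid oxidation genes. The median log2 fold change of the 28 was 0.22 in all 13 and 0.04 in the 7 libraries. In edgeR 0 passed in the 13 or the 7 libraries. DESeq2 called 2 of the 28 higher in the 13 libraries, Angptl4 (adjusted p = 0.006686) among them, against 48 of 17330 genes. With limma voom 1 of the 28 was called higher, against 22 of 17330 genes. Fkbp5, a co-chaperone of the glucocorticoid receptor (ENSMUSG00000024222, 17:28399094-28517527), had a median of 343 CPM (206 to 384) in fasted and 409 CPM (361 to 466) in fed libraries. The groups overlapped, and the fasted median was the lower one (-0.29 ± 0.14; edgeR adjusted p = 0.82). Tsc22d3 (0.19 ± 0.25), Per1 (0.38 ± 0.23), Klf9 (0.04 ± 0.22), Zbtb16 (-0.06 ± 0.43) and Cdkn1a (0.19 ± 0.23) also overlapped, with edgeR adjusted p from 0.934 to 0.999, and Tsc22d3, Klf9, Zbtb16 and Cdkn1a changed sign in some alternatives. Rgs2, a regulator of G protein signalling, had a mean of 11.5 ± 3.91 CPM (SD) over the 7 fasted and 7.18 ± 1.19 CPM over the 6 fed libraries (0.73 ± 0.24; edgeR adjusted p = 0.468).

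Of 29 tested genes of the FoxO and autophagy list, 5 were higher and 0 lower at an unadjusted p under 0.05. Over all genes the shares were 3.32% and 3.03%. The median log2 fold change of the list was 0.16 in all 13 and 0.02 in the 7 libraries. In edgeR and limma voom 0 passed. DESeq2 called 1 higher, Depp1 (adjusted p = 0.02624), against 48 of 17330 genes. Depp1, a FoxO-responsive gene (ENSMUSG00000048489, 6:116650609-116652794), had a median of 10.8 CPM (2.49 to 50.2) in fasted and 2.89 CPM (2.07 to 5.06) in fed libraries. HFD fasted 1 and 2 lay within the fed range (2.26 ± 0.64; edgeR adjusted p = 0.323). Depp1 lies inside the span of Rassf4 on the other strand, and their reads cannot be separated without strand. Txnip, an inhibitor of thioredoxin and glucose uptake, had a median of 286 CPM (136 to 979) in fasted and 176 CPM (135 to 186) in fed libraries (1.23 ± 0.39; edgeR adjusted p = 0.447). Gabarapl1, which serves autophagosome formation, had a log2 fold change of 0.41 ± 0.16 in all 13 and 0.11 ± 0.14 in the 7 libraries. Ddit4, an inhibitor of mTORC1, was at 80.5 CPM (53.1 to 148) in fasted and 79.3 CPM (67.0 to 107) in fed libraries, with nearly equal medians (0.18 ± 0.24; edgeR adjusted p = 0.999).

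Genes of the matrix had mostly lower values in fasted libraries. Of 34 genes of the extracellular matrix, 10 were lower and 0 higher at an unadjusted p under 0.05, against 3.03% and 3.32% of all genes, with a median of -0.32 in all 13 and -0.56 in the 7 libraries, where 5 passed as lower in edgeR, against 0.4% of all genes called. Col1a1, a chain of type I collagen (ENSMUSG00000001506, 11:94936224-94953042), had a median of 69.6 CPM (39.1 to 100.01) in fasted and 133 CPM (120 to 195) in fed libraries, without overlap (-0.99 ± 0.22; edgeR adjusted p = 0.182). In the 7 libraries it passed (-0.995 ± 0.172; edgeR adjusted p = 0.0332). Col15a1, a basement membrane collagen, averaged 21.5 ± 10.7 CPM (SD) in fasted and 56.3 ± 16.3 CPM in fed libraries (-1.37 ± 0.31; edgeR adjusted p = 0.182), and Col6a2 had a log2 fold change of -0.96 ± 0.28. The fibroblast marker sum had a median of 574 CPM (299 to 1354) in fasted and 855 CPM (727 to 1325) in fed libraries (exact permutation, two-sided p = 0.17, adjusted p = 0.809), and the part of fibroblast content in these values was not tested. Tuba1a, an alpha-tubulin gene, had a median of 43.3 CPM (30.1 to 65.1) in fasted and 96.2 CPM (63.7 to 118) in fed libraries, with CD fasted 4 inside the fed range. Its log2 fold change was -1.09 ± 0.20 (edgeR adjusted p = 0.147), and -1.32 ± 0.14 in the 7 libraries (edgeR adjusted p = 0.00253).

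Of 23 genes of the unfolded protein response, 3 were lower and 0 higher at an unadjusted p under 0.05, against 3.03% and 3.32% of all genes, with a median of -0.18. Hyou1, a chaperone of the endoplasmic reticulum, had a mean of 360 ± 24.9 CPM (SD) over the 7 fasted and 453 ± 39.6 CPM over the 6 fed libraries, without overlap (-0.33 ± 0.10; edgeR adjusted p = 0.364). Ern1, the stress sensor IRE1, was at -0.43 ± 0.17 and Sel1l, of the degradation complex, at -0.26 ± 0.11, and neither passed. Ribosomal protein genes (0 of 48 at an unadjusted p under 0.05, median -0.03), interferon genes (0 of 28, median 0.09) and insulin signalling genes (0 of 25, median -0.02) lay close to the median of all genes, 0.04.

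Most transcripts of a hepatocyte marker list were lower in fasted than in fed libraries. Of the 20 hepatocyte markers, 17 were lower and 1 higher at an unadjusted p under 0.05, against 3.03% and 3.32% of all genes, with a median of -4.56, and in 11 of them each fasted library lay below each fed one, against 0.508% of all genes. Alb, which encodes serum albumin and was picked out after its values were seen (ENSMUSG00000029368, 5:90460897-90476602), had a median of 17.3 CPM (1.74 to 105) in fasted and 262 CPM (110 to 1301) in fed libraries. CD fed 1 and HFD fed 4 were highest, and the groups were separated by a narrow gap between HFD fasted 1 and CD fed 4. Its log2 fold change was -4.75 ± 1.01 (edgeR adjusted p = 0.164). The other 6 eWAT libraries included far higher levels, up to 123710 CPM. Fgg, the fibrinogen gamma chain, was at 1.37 to 3.47 CPM in fasted and 7.85 to 71.6 CPM in fed libraries (-3.78 ± 0.58; edgeR adjusted p = 0.0959). Tat, tyrosine aminotransferase, was at 0 to 2.01 CPM in fasted and 3.03 to 28.7 CPM in fed libraries (-5.54 ± 1.02; edgeR adjusted p = 0.147), and Ttr, the carrier transthyretin, at 0 to 5.66 and 11.6 to 161 CPM (-5.53 ± 1.02; edgeR adjusted p = 0.147). DESeq2 called 14 of the 20 as lower (1.22% of all genes called) and limma voom 4 (0.837%). In the 7 libraries edgeR called 6 as lower and 1 as higher (0.4%). The 7 libraries were chosen partly on the sum of this list, so that last count is a description only. In the other 6 eWAT libraries Fgg, Tat and Ttr, like Alb, had the higher median in the fasted ones. The source of the hepatocyte list transcripts was not tested.

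**Figure D4:**
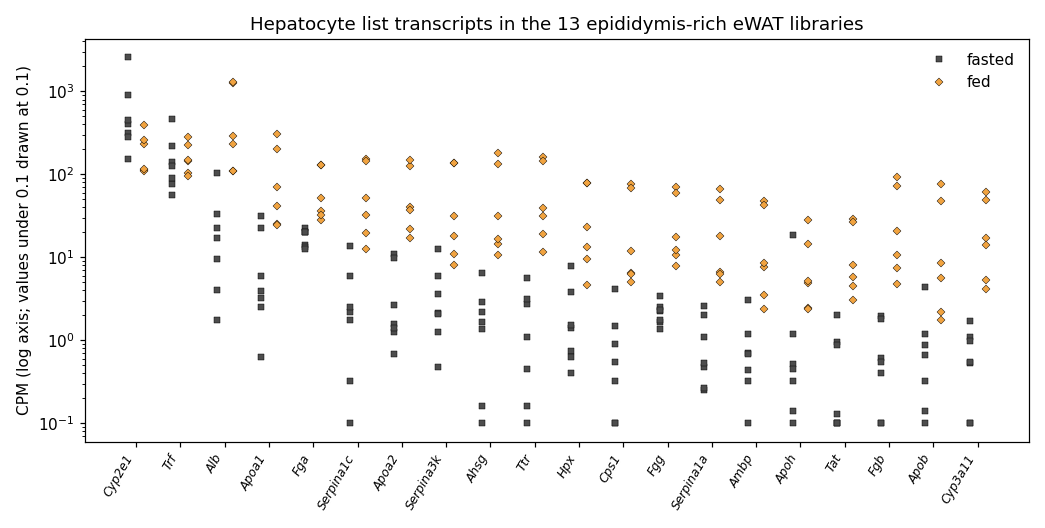
CPM (log axis; values under 0.1 drawn at 0.1) of the 20 hepatocyte list transcripts in the 7 fasted (squares) and 6 fed (diamonds) libraries, ordered by median. For 11 of the 20, Alb, Fgg and Tat among them, every fasted library lies below every fed one; the other 9 overlap.

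Cyp2e1 and Trf, which fat also expresses, did not follow the rest. Without this pair, a choice made after the values were seen, the median sum of the other 18 was 50.0 CPM (32.8 to 247) in fasted and 639 CPM (282 to 3087) in fed libraries. The sum of the full list overlapped between groups (median 556 CPM in fasted, 904 CPM in fed libraries; exact permutation, two-sided p = 0.337, adjusted p = 0.809). Cyp2e1 itself had a median of 406 CPM (152 to 2589) in fasted and 174 CPM (109 to 397) in fed libraries. In the 7 libraries its log2 fold change was 1.69 ± 0.16. That value is a description only, since Cyp2e1 is part of the sum on which the 7 were chosen. Slc38a3, a glutamine transporter (ENSMUSG00000010064, 9:107650634-107669530) with the smallest p of all, had a median of 3.09 CPM (1.31 to 4.19) in fasted and 16.5 CPM (7.94 to 49.1) in fed libraries. Each fasted library lay below each fed one, and CD fed 1 and HFD fed 4, the highest for Alb, were again highest. The log2 fold change was -3.34 ± 0.47 (edgeR adjusted p = 0.0959), and -2.41 ± 0.30 in the 7 libraries (edgeR adjusted p = 0.00578). Ces1c, a plasma carboxylesterase, was at 0 to 2.2 CPM in fasted and 2.28 to 47.5 CPM in fed libraries (-5.12 ± 0.92; edgeR adjusted p = 0.147).

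In the 7 libraries other genes with a small p, named after their values were seen, were Thbd (-1.92 ± 0.20), Col5a3 (-1.74 ± 0.21), Hp (-1.14 ± 0.15) and Spns2 (-1.30 ± 0.18), all lower. Thbd, the thrombin receptor thrombomodulin, was at 6.41 to 10.5 CPM in the 4 fasted and 30.3 to 37.6 CPM in the 3 fed libraries of this set. Over all 13 libraries Thbd reached 44.6 CPM in CD fasted 4 and the groups overlapped (-1.35 ± 0.47; edgeR adjusted p = 0.557). Hp, haptoglobin, likewise overlapped over all 13, at 60.6 to 423 CPM in fasted and 185 to 588 CPM in fed libraries.

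Transcripts of the epididymis are given as a description only, since the libraries were chosen on Gpx5. Lcn5, a lipocalin of the duct, had a median of 4338 CPM (1259 to 9557) in fasted and 3230 CPM (2905 to 4005) in fed libraries. The fasted range enclosed the fed one (log2 fold change 0.52 ± 0.42). For Rnase9 (0.56 ± 0.51), also a product of the duct, fasted libraries likewise lay on both sides of the fed range, and for Spint4 (0.98 ± 0.58) the groups overlapped. HFD fasted 3, lowest for Gpx5, was highest for Lcn5, Rnase9 and Spint4.

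The fasting response did not differ detectably between early diets. None of 17330 genes passed the test of the difference in edgeR (0%; lowest adjusted value 0.553; 1207 before adjustment at p under 0.05), 0 passed in limma voom and 3 in DESeq2, whose fitted values of 30 on the log2 scale mark groups without counts. The smallest p among genes of moderate level was that of Fbln1, a matrix protein. It averaged 11.1 ± 1.64 CPM in HFD fasted (n = 4), 18.6 ± 2.33 in CD fasted (n = 3), 30.0 ± 1.43 in HFD fed (n = 2) and 19.3 ± 4.55 in CD fed libraries (n = 4). The difference between diets was -1.37 ± 0.31 (log2; edgeR adjusted p = 0.553). Rassf4 (-1.46 ± 0.35) and Cilp (-1.72 ± 0.42) followed, with the same adjusted p. With 2 HFD fed libraries the precision was low.

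Set against quadriceps (12 fasted and 8 fed libraries), 921 of 18438 genes (5%) differed in fasting response in a joint edgeR fit. Of these, 288 were higher and 633 lower in the epididymis-rich eWAT libraries. In this comparison eWAT means those 13 libraries. Their median epididymal sums were 53000 CPM fasted and 52550 CPM fed, and their adipocyte sums 3782 and 4040 CPM. The eWAT values below therefore do not stand for fat alone. Among the 28 glucocorticoid-responsive genes 15 were lower and 1 higher, and among 30 FoxO and autophagy genes 15 were lower and 0 higher. Over all genes 633 of 18438 were lower and 288 higher. Ddit4 and Sesn1 are in both lists and count among the lower genes of each. For Fkbp5 the log2 fold change was -0.29 in eWAT and 1.84 in quadriceps, a difference of -2.17 ± 0.20 (edgeR adjusted p = 1.259e-08). Depp1 differed by -4.24 ± 0.60 (2.26 in eWAT, 6.50 in quadriceps; edgeR adjusted p = 2.396e-05), Ddit4 by -3.50 ± 0.42 (0.18 and 3.64; edgeR adjusted p = 1.472e-06), Klf9 by -1.47 ± 0.19 (0.04 and 1.44; edgeR adjusted p = 3.645e-06) and Per1 by -1.85 ± 0.29 (0.38 and 2.16; edgeR adjusted p = 9.544e-05). These differences also passed in limma voom with weights per tissue.

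**Figure D5:**
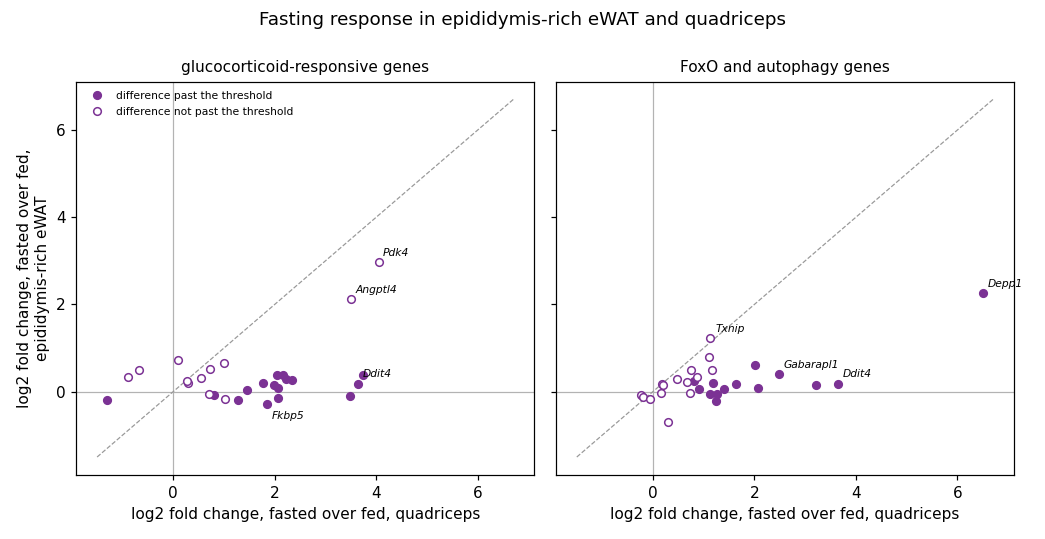
Log2 fold change of fasted over fed in the 13 epididymis-rich eWAT libraries (vertical) against quadriceps (horizontal) for glucocorticoid-responsive and FoxO or autophagy genes; each point is a gene tested in both tissues, filled where the difference passed an adjusted p of 0.05, and the dashed line marks equal values. Most genes lie near 0 in epididymis-rich eWAT and above it in quadriceps. Pdk4 and Angptl4 lie above 0 in both tissues but below the dashed line, and Txnip lies close to that line.

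Other transcripts had fasting responses whose difference between tissues did not pass. Pdk4 had a log2 fold change of 2.97 ± 0.57 in eWAT and 4.04 ± 0.34 in quadriceps (difference -1.10 ± 0.58; edgeR adjusted p = 0.357), Peg3 2.11 ± 0.33 and 2.71 ± 0.23 (-0.65 ± 0.37; edgeR adjusted p = 0.413), Txnip 1.23 ± 0.39 and 1.13 ± 0.09 (0.04 ± 0.32; edgeR adjusted p = 1), Col1a1 -0.99 ± 0.22 and -1.68 ± 0.26 (0.65 ± 0.37; edgeR adjusted p = 0.407) and Pnpla3 -2.41 ± 0.57 and -1.43 ± 0.16 (-1.04 ± 0.49; edgeR adjusted p = 0.278). With SE of this size a missed threshold does not show that the tissues respond alike. Among all genes of moderate level, the smallest p belonged to the muscle ubiquitin ligase Fbxo32 (0.16 in eWAT, 3.21 in quadriceps), Arrdc2 (-0.09 and 3.48), Tacc2 (-0.13 and 2.35), Retreg1 (0.00 and 2.60) and Doc2b (-0.67 and 4.84) in the lower direction. In the higher direction they were Mrtfa (-0.03 and -2.90), Calm2 (0.42 and -1.38), Ccnd1 (-0.48 and -3.07), Auts2 (0.04 and -1.44) and Trim7 (0.26 and -1.21). All 10 had edgeR adjusted p of at most 4.832e-06.

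Against the other 6 eWAT libraries, 3905 of 20268 genes (19.3%) had a different fasting response in edgeR, 2437 higher and 1468 lower. That class holds no CD fed library, so its fasting value rests on the single HFD fasted library set against 2 HFD fed ones. The hepatocyte sum of that fasted library was 173800 CPM. No gene is named from this comparison, since its liver content and fasting cannot be told apart.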

How the data were processed

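Poly-A-selected RNA was read on the Ion Torrent Proton, per the labels' protocols. The deposited files hold raw read counts per Ensembl gene; the build GRCm38 and the tools HTSeq 0.6.0, TopHat2 2.1.0 and Bowtie2 2.2.5 are named, per the submitters' processing notes. The strand setting is not given in the sources used here. The 5 summary lines per file were dropped. Of 45232 gene IDs, 44585 were named from GENCODE M21. Reads carried no molecular identifiers.

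In edgeR 4.0.16 (R 4.3.3) genes were filtered by filterByExpr, scaled by TMM and tested with robust quasi-likelihood fits of fasting plus early diet, two-sided, with Benjamini-Hochberg adjustment over all tested genes and a threshold of 0.05. One fit with both tissues tested the difference from quadriceps. Levels are CPM on TMM-scaled library sizes; marker sums use plain library sizes, with 0.5 added before the log2. Alternatives used DESeq2 1.42.0, limma 3.58.1 and sva 3.50.0. The fits were tested on simulated data. The closest pair of libraries differed by 7.81 times the sampling noise (chi-square per degree of freedom), so none was counted as a duplicate.

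The libraries, gene lists and naming rule were chosen with earlier results of these data known. Genes were named as the 5 smallest p per direction (protein-coding, average log2 CPM of at least 2), up to 3 smallest p per described list and 15 genes of interest; any other gene is said to have been picked with its values in view, and some genes are not reported here. Alternatives without the 2 testis-rich or the 4 outlying libraries, with a testis covariate, and with other tools in the 7 libraries were added after seeing the data, as were the adipocyte-relative values and the 18-gene hepatocyte sum.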

Additional observations from a re-analysis of the deposited data

Results flagged for a closer look

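Among 134 groups of values examined, 15 held a library far from the others by a criterion that chance meets in about 1 group in 20. HFD fasted 1 was the lowest fasted library for Fkbp5 (206 CPM) and the epididymal basal cell sum (103 CPM) and the highest for Per1 (185 CPM) and the testis sum (20326 CPM). CD fed 1 was the lowest fed library for Gpx5 (7690 CPM), the epididymal sum (21193 CPM), the epididymal basal cell sum (187 CPM) and the smooth muscle sum (613 CPM), and the highest for the testis sum (4917 CPM). CD fasted 4 was the highest fasted library for Zbtb16 (51.6 CPM) and Gabarapl1 (246 CPM), and HFD fasted 3 the lowest for Gpx5 (1495 CPM). HFD fed 4 was the highest fed library for Sc5d (50.3 CPM) and the lowest for Spint4 (237 CPM), and CD fed 2 was the lowest for Peg3 (6.02 CPM).

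The fasting response differed between these eWAT libraries and quadriceps for 22 named genes by the edgeR test of the difference. It was lower in eWAT (log2, eWAT minus quadriceps) for Doc2b (-5.63), Depp1 (-4.24), Arrdc2 (-3.61), Ddit4 (-3.50), Slc38a3 (-3.37), Fbxo32 (-3.10), Retreg1 (-2.65), Tacc2 (-2.53), Spns2 (-2.47), Fkbp5 (-2.17), Gabarapl1 (-2.13), Per1 (-1.85), Cdkn1a (-1.63), Klf9 (-1.47), Ern1 (-1.41), Lss (-1.02) and Insig1 (-0.99). It was higher for Mrtfa (2.81), Ccnd1 (2.56), Calm2 (1.76), Auts2 (1.44) and Trim7 (1.44). In limma voom with weights per tissue Cdkn1a (adjusted p = 0.258) and Lss (adjusted p = 0.0625) did not pass.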

How the results depend on the processing

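The fasting count was 0 in edgeR with all 13 libraries, and 0 also with RLE scaling, no filter on low counts, no diet covariate, 4 group means, Gpx5 above 3000 CPM, all 19 eWAT libraries and Gm42418 left out; leaving out each library in turn gave 0 to 3, the 3 without CD fed 1 (Slc38a3 at -2.93, Cyp1a2 at -5.08 and Cyp2c50 at -6.38; edgeR adjusted p = 0.0282). It was 212 in DESeq2, 145 in limma voom, 189 with 1 surrogate variable, 143 with the epididymal sum, 64 with the adipocyte sum and 6 with the hepatocyte sum as a covariate (a sum that includes Cyp2e1 and Trf, so not liver content alone), and 64 in the 7 libraries. Of the alternatives added after seeing the data, leaving out the 2 testis-rich libraries gave 45, the testis sum as a covariate 214, leaving out the 4 outlying libraries 148, and the 7 libraries 220 in DESeq2 and 156 in limma voom. The cause of these differences was not tested. The diet interaction gave 3 in DESeq2 and 0 in the other alternatives. The difference from quadriceps gave 1392 in DESeq2 and 445 in limma voom, against 921.

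Of 53 named genes, 36 kept their sign in every alternative in which they were tested (32, or 26 for Zim1) and 17 did not; 31 passed the threshold in at least 1 alternative. With all 19 eWAT libraries the sign reversed for several genes. The log2 fold change was then 3.45 for Slc38a3, 3.54 for Fgg, 3.82 for Ces1c, 4.57 for Tat, 3.90 for Ttr and 4.15 for Alb. It was 0.58 for Hp, 0.34 for Spns2, 0.23 for Zbtb16, -0.31 for Adipoq and -0.16 for Gpx5. Klf9 was at -0.21 in limma voom, -0.0095 with the surrogate variable, -0.018 with the testis sum, -0.12 without the 2 testis-rich and -0.28 without the 4 outlying libraries, and at -0.3014, -0.3009 and -0.3055 in the 7 libraries by edgeR, DESeq2 and limma voom. Cdkn1a was at -0.016 in limma voom (-0.0157) and with the adipocyte sum (-0.0156), -0.055 without the 4 libraries, and -0.0749 (edgeR and DESeq2) and -0.20 (limma voom) in the 7. Scd1 was at -0.12 in limma voom, -0.34 with the adipocyte sum, -0.32 without the 4 libraries, and -0.2726, -0.2723 and -0.38 in the 7. Ddit4 was at -0.0368, -0.0367 and -0.12 in the 7. Zbtb16 was at 0.12 with the hepatocyte sum and 0.028 without the 2 testis-rich libraries, Gpx5 at -0.024 with the hepatocyte sum, Adipoq at -0.0054 without the 4 libraries, and Spint4 at -0.038 in the 7 by limma voom. Leaving out each library in turn gave -0.0315 to 0.30 for Tsc22d3, -0.14 to 0.14 for Klf9, -0.70 to 0.29 for Zbtb16, -0.40 to 0.46 for Scd1 and -0.14 to 0.28 for Gpx5. Of 2240 counts of list members called, 2134 equalled the main one. The main count was 0 for every list, so this agreement only repeats the absence of calls. No paired analysis was possible because the labels give no replicate numbers that groups share.

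Depth, at most 10928485 counted reads, limits the precision of low transcripts such as Zim1, Tat and Ces1c.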

Other observations

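Some gene groups not described above are given here for the 13 libraries, beside a median of 0.04 (log2) over all genes. Of 12 endothelial markers, 1 was higher and 0 lower in fasted libraries at an unadjusted p under 0.05 (edgeR), against 3.32% and 3.03% of all genes, with a median of 0.63 in the 13 and -0.02 in the 7 libraries. Of 52 nuclear genes of oxidative phosphorylation, 1 was higher and 2 were lower in fasted libraries at an unadjusted p under 0.05 (edgeR), with a median of -0.01. Of 25 genes of ribosome biogenesis 3 were higher and 0 lower, with a median of 0.07, and of 22 genes of the NRF2 and glutathione list 2 were higher and 0 lower, with a median of 0.05. Of 29 genes of glycolysis and glycogen 1 was higher and 2 were lower, with a median of -0.13. The clock list had 0 higher and 1 lower of 19, and the cell cycle list 0 of 29 in either direction.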
